A study of Mus musculus with 8 samples.

Results

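The 10 genes described here encode transcription regulators of round spermatids, the haploid cells that follow meiosis in the testis: *Crem*, *Fhl5*, *Tbpl1*, *Taf7l*, *Rfx2*, *Rfx3*, *Sox5*, *Sox30*, *Brdt* and *Papolb*. They are followed through all rows of the 3 deposited transcript tables whose gene name equals 1 of the 10, each transcript identifier taken once. This gave 24 transcripts of 10 genes, out of 19077 transcripts and 12200 gene names. The tables sort transcripts by the length of their 3' UTR as a short class ending at 350 nt, a long class beginning above 1500 nt, and a medium class between them. Some transcripts are listed in more than 1 table, with 19882 entries in all, and among the members this is so for Tbpl1-201. RNA came from testes of C57BL/6 mice at postnatal day 26, with 4 *Tdrd6*-/- and 4 *Tdrd6*+/- samples, 8 libraries in all. The controls are heterozygotes and not wild type. Animals of both genotypes have at least 1 targeted *Tdrd6* allele, in which the human surface protein hCD4 is joined to the start codon, and cells were isolated with magnetic beads against hCD4. The beads can hold any cell with an active *Tdrd6* locus, so the preparation is enriched for round spermatids without being pure.

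A round spermatid transcribes a large set of genes for the later sperm and then compacts its chromatin, so that much of this RNA has to be made and stored ahead of use. CREM is the activator that binds the cAMP response element (CRE) of many spermatid genes, and FHL5, also called ACT, is the LIM-domain coactivator that binds it. TBPL1 and TAF7L are relatives of the TATA-binding protein and of the TFIID subunit TAF7, RFX2 and RFX3 bind X-box sites of genes for cilia and the sperm tail, SOX5 and SOX30 are HMG-box factors, BRDT reads acetylated histones, and PAPOLB lengthens poly(A) tails in the spermatid cytoplasm.

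The deposited value of a transcript is 1 FPKM per genotype (fragments scaled to transcript length and to library size), into which Cuffdiff combined the 4 libraries. The spread between animals and the reads behind a value are therefore unknown, and the ratios below are given with no test and no replicate check, since the authors' own test columns were not used. A transcript was counted as apart when its values differed at least 1.5-fold and the higher reached an FPKM of 1, which is a rule of size. *Tdrd6* itself was low in the knockout, as its main transcript was at 40.6 in *Tdrd6*+/- and 1.29 in *Tdrd6*-/-, 31.5-fold lower, and its others at 16.02 and 0.174 and at 0.540 and 0. The summed FPKM of 9 late spermatid markers was 22616 and 6655 in the same order, with 7 of 9 (77.8%) apart and lower in *Tdrd6*-/-. That of 10 round spermatid and acrosome markers was 2337 and 1705, with 5 (50%) lower. Among all genes, each by its most abundant transcript, 8.05% were apart and lower and 6.49% apart and higher. Among transcripts with an FPKM of 100 or more these shares were 13.4% and 0.337%. Of 10 pachytene and diplotene markers 0 were apart (8137 and 6595), and their median log2 ratio of *Tdrd6*-/- over *Tdrd6*+/- was -0.03. Of 10 early meiotic markers 1 was higher (10%), with a sum of 1162 and 1004 but a median log2 ratio of 0.27. Such a sum is set mostly by its most abundant genes, here *Syce1* (505 and 451) and *Syce3* (406 and 275). Of 6 spermatogonial markers that passed 2 were apart and lower (33.3%), with a sum of 11.4 and 9.45 over all that had a row. Somatic markers were low, with sums of 40.6 and 37.3 for Sertoli cells, whose markers *Sox9*, *Amh* and *Rhox5* had no row. For Leydig cells the sums were 28.3 and 27.6, with a median log2 ratio of 0.30. Of 6 blood markers 5 had no row. By flow cytometry of such preparations, the study reports similar fractions of round spermatids and of spermatocytes in both genotypes. From earlier work it also describes an arrest of *Tdrd6*-/- cells between round and elongated spermatids. The part of these marker differences in the values below was not tested, and in such bulk samples fewer cells of a type and less RNA per cell cannot be told apart.

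Of the 24 transcripts, 23 reached an FPKM of 1. Among them 3 were apart and higher in *Tdrd6*-/- (13.0%, against 9.7% of all 15585 transcripts that passed the same filter) and 1 was apart and lower (4.35%, against 9.99%). These shares are near the background. The median log2 ratio of *Tdrd6*-/- over *Tdrd6*+/- was -0.04 for the members and 0.00 for all transcripts, with 11 members above 0 and 12 below. The values of 12 members differed by less than a ratio of 5 to 4, as did those of 53.5% of all transcripts. The range ran from -0.73 for a *Crem* transcript to 0.83 for an *Rfx3* transcript.

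**Figure D1:**
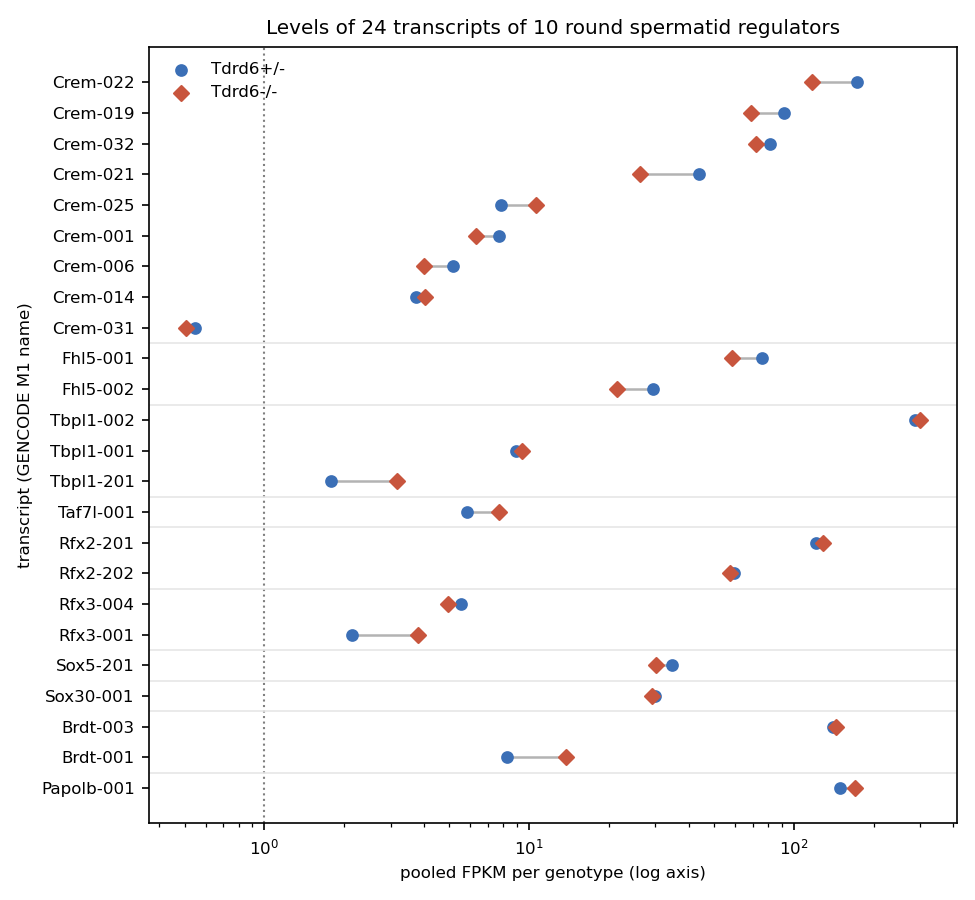
The pooled FPKM of each of the 24 transcripts (rows, named as in GENCODE M1) is drawn on a log axis, with circles for *Tdrd6*+/- and diamonds for *Tdrd6*-/-, and the dotted line marks an FPKM of 1. *Crem* and *Fhl5* diamonds mostly lie left of their circles, while the abundant transcripts of *Tbpl1*, *Rfx2*, *Brdt* and *Papolb* nearly coincide or lie to the right.

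By the FPKM of their listed transcripts in *Tdrd6*+/-, summed per gene, the order was *Crem* (414), *Tbpl1* (296), *Rfx2* (180), *Papolb* (149), *Brdt* (148), *Fhl5* (105), *Sox5* (34.5), *Sox30* (29.96), *Rfx3* (7.65) and *Taf7l* (5.81). The sum of *Crem* was above that of 97.9% of all gene names, and that of *Taf7l* above 46.2%. *Papolb* and *Brdt*, neighbours in this order, differed by less than 1 FPKM unit, and with no spread known the order of such neighbours is not settled. In *Tdrd6*-/- *Tbpl1* stood first at 313 and *Crem* next at 309. None of the 10 sums was 1.5-fold apart, against 12.7% of the sums of all genes. The most negative summed log2 ratios were those of *Crem* (-0.42) and *Fhl5* (-0.40), and the most positive was that of *Taf7l* (0.41). The *Crem* sum is not a measure of the activator alone. Short forms from internal starts, described below, made up 43.7% of it in *Tdrd6*+/-.

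*Crem* (minus strand of chromosome 18, mm9) had 9 of its 41 annotated transcripts in the tables, and they differ in where they start and in which domains they encode. Crem-022, a short transcript of 436 nt and 120 codons from an internal start at position 3281767, was the most abundant at an FPKM of 173 in *Tdrd6*+/- and 117 in *Tdrd6*-/-, 1.48-fold lower. Crem-025 shares that start and has 108 codons, but its longer 3' UTR of 631 nt puts it in the medium table, and its FPKM was 7.80 and 10.6, 1.36-fold higher. Crem-031, of 119 codons from a nearby start at 3281076, was at 0.548 and 0.506 and did not reach the minimum of 1. Short products from this internal promoter are known as ICER, which keep the DNA-binding domain without the activation domains and act as repressors. These 3 transcripts summed to 181 in *Tdrd6*+/- and 128 in *Tdrd6*-/-, 1.41-fold lower.

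The other *Crem* transcripts start further 5'. Crem-019, with 330 codons, was at an FPKM of 91.9 in *Tdrd6*+/- and 68.8 in *Tdrd6*-/-. Crem-032, with 229 codons, was at 81.2 and 71.9. The annotation marks the 5' end of both as incomplete, so where their transcription starts is not given by it. Crem-021, of 243 codons from a start at 3299554, was the single member apart and lower, at 43.7 and 26.3, 1.66-fold lower. Among all transcripts with an FPKM of 20 to under 100, 8.44% were apart and lower, and 4.75% had a more negative log2 ratio than Crem-021. It was no longer apart when the log2 ratio was taken relative to transcripts of the same 3' UTR table (-0.58 in place of -0.73) or of like total length (-0.46).

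The remaining *Crem* transcripts come from the 5'-most starts, between 3337572 and 3337746, and are low. Crem-001, the full form of 357 codons, was at an FPKM of 7.66 in *Tdrd6*+/- and 6.30 in *Tdrd6*-/-. Crem-006, with 282 codons, was at 5.15 and 4.01. Crem-014, with 173 codons, ends at 3294480, before the last exons of the gene that encode the DNA-binding domain, and was at 3.73 and 4.06. Of the 8 *Crem* transcripts that passed the filter, 6 were lower in *Tdrd6*-/- and 2 were higher, Crem-025 and Crem-014, both in the medium table. Relative to transcripts of like total length 5 were lower and 3 higher, as Crem-032 turned from -0.18 to 0.13 on the log2 scale, and Crem-022 went from -0.56 to -0.19. Grouped by start from 5' to 3', the summed FPKM was 16.5 and 14.4, then 173 and 141, then 43.7 and 26.3, then 181 and 128. The internal starts gave 43.7% of the listed *Crem* FPKM in *Tdrd6*+/- and 41.4% in *Tdrd6*-/-, and the incomplete forms 41.8% and 45.4%. Nearly all of each *Crem* transcript (86.7% to 100% of its 75-base stretches, 75 bases being the read length) also occurs in another annotated *Crem* transcript, so the division of reads among them is an estimate of Cuffdiff.

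**Figure D2:**
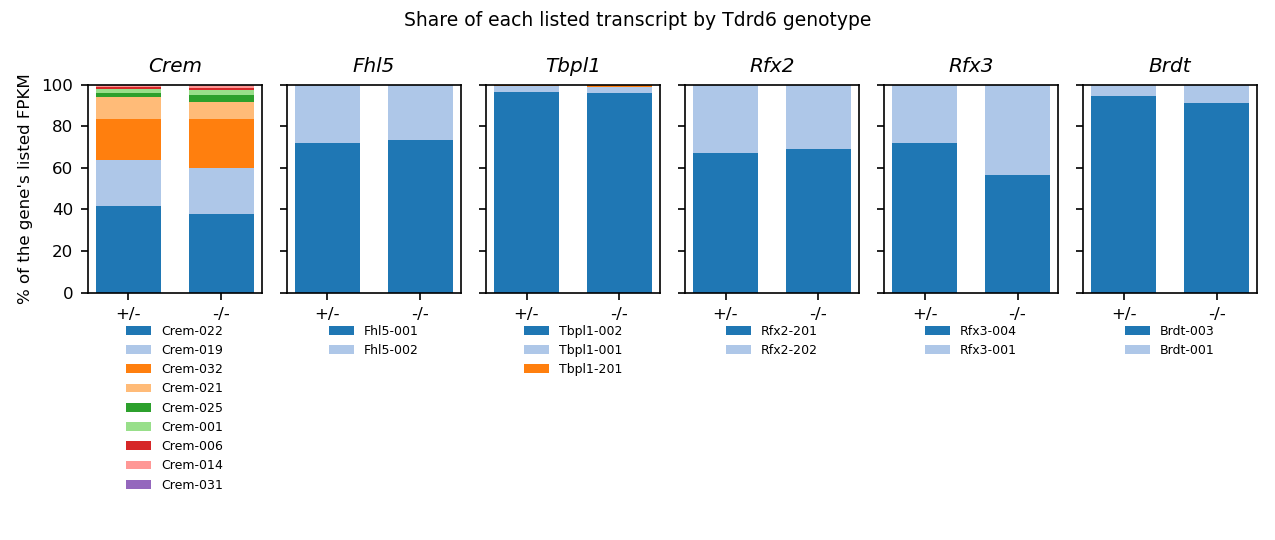
Stacked bars show the share (%) that each transcript takes of the summed FPKM of its gene's listed transcripts, in *Tdrd6*+/- (left bar) and *Tdrd6*-/- (right bar), for the 6 genes with more than 1 listed transcript. Crem-022 takes 41.7% and 37.8%, and the visible shift is in *Rfx3*, where Rfx3-001 takes 27.9% and 43.4%.

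*Fhl5* lies on the minus strand at chr4:25127055-25170023, and both of its annotated transcripts were listed in the short table. They encode the same 284 codons and differ by an exon of the 5' UTR. Fhl5-001 was at an FPKM of 75.7 in *Tdrd6*+/- and 58.4 in *Tdrd6*-/-, 1.30-fold lower. Fhl5-002, which holds the additional exon, was at 29.5 and 21.4, 1.38-fold lower. Neither was 1.5-fold apart, and both lay on the same side of no difference as the abundant *Crem* transcripts. Relative to transcripts of like total length, Fhl5-001 went from -0.38 to -0.11 on the log2 scale and Fhl5-002 from -0.46 to -0.26. The median log2 ratio over all transcripts of the short table was -0.15. A noncoding transcript, Gm11906, overlaps *Fhl5* on the opposite strand. *Crem*, *Tbpl1*, *Rfx3*, *Sox5* and *Brdt* also overlap annotated genes on the opposite strand, and whether the counting used strand is not given in the sources used here.

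*Tbpl1* (chr10:22423685-22451744, minus strand) encodes the TBP-like factor that spermatids need to complete their differentiation. Its 3 listed transcripts start at different bases. Tbpl1-002, of 186 codons, carried almost the whole signal at an FPKM of 285 in *Tdrd6*+/- and 300 in *Tdrd6*-/-, 96.4% and 96.0% of the listed sum. Tbpl1-001 encodes the same 186 codons with a 3' UTR of 1937 nt against 435 nt for Tbpl1-002, and was at 8.96 and 9.44. The long and the medium form were each 1.05-fold higher. Relative to its own 3' UTR table the long form turned from 0.08 to -0.13 on the log2 scale. Tbpl1-201, listed in both the short and the medium table with an annotated 3' UTR of 532 nt, has 188 codons and a different 3' end of its coding region, and was at 1.79 and 3.17, apart and higher at 1.77-fold. It is a low transcript, and 15.3% of all transcripts with an FPKM of 1 to under 5 were apart and higher. With a pseudocount of 1 its log2 ratio of 0.82 became 0.58, just under the fold.

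The junctions that tell some of these forms apart are short, and reads across them are among those that separate the isoforms of 1 gene. They are shown here for *Tbpl1*, *Rfx2* and *Brdt*, whose coding sequence differs between listed forms and is annotated from end to end. The coding sequence of the listed *Crem* forms differs as well, and their junctions are not shown. Sequences were read from the NCBIM37 assembly (mm9) with GENCODE M1 exons, with the first 15 bases of the downstream exon in capitals.
Tbpl1-002 and Tbpl1-001: gcatcacagtgacagGGCCCAATGTAAAGG
Tbpl1-201: gcatcacagtgacagATCATGTAAATGATC
Rfx2-201, into the cassette exon: tcctcacctgccacgCTTGAAATGGCGATT
Rfx2-201, out of the cassette exon: ctgctcaacagccatCTCCAGTGGCTTCTG
Rfx2-202, skipping it: tcctcacctgccacgCTCCAGTGGCTTCTG
Brdt-001, first junction past the exons that Brdt-003 uses: ctcggaacgatcaagGGGAAAATGGACAAT
The *Tbpl1* forms leave the same exon end, and Tbpl1-201 enters an additional exon. Tbpl1-002 and Tbpl1-001 share the junction shown and differ in their start and their 3' UTR. In *Rfx2* the skipping form joins the same exon end to the exon that follows the cassette. The *Brdt* junction is the first that Brdt-003 lacks. It leaves at base 107779445, before the annotated end of Brdt-003 at 107779760.

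*Taf7l*, X-linked at 130994657 to 131011029 on the minus strand and related to TFIID subunit TAF7, had 1 of its 3 annotated transcripts listed. Taf7l-001, of 471 codons, was at an FPKM of 5.81 in *Tdrd6*+/- and 7.73 in *Tdrd6*-/-, 1.33-fold higher and not 1.5-fold apart. Of the transcripts in its FPKM range, 81.3% had a lower log2 ratio.

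Of 23 genes for subunits of the general factors TFIID, TFIIA and TFIIB, 19 passed the filter, each with its most abundant transcript. Among all genes treated this way, 6.49% were apart and higher and 8.05% apart and lower, with a median log2 ratio of -0.01. In this list 2 were higher and none was lower, with a median log2 ratio of 0.17. *Taf15*, an RNA-binding TFIID-associated factor, was at an FPKM of 3.51 in *Tdrd6*+/- and 8.35 in *Tdrd6*-/-, 2.38-fold higher, and *Taf2*, which contacts core promoter DNA, was at 5.56 and 8.79. The most abundant were *Taf9*, a histone-fold TFIID subunit, at 678 and 643, and *Gtf2a1l*, the germ cell form of the TFIIA large subunit, at 476 and 365. *Tbp* itself was at 48.8 and 50.6, below *Tbpl1* in both genotypes.

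*Rfx2* (chr17:56915320-56970431, minus strand) was the abundant RFX gene. Both of its annotated transcripts were listed, and they start at the same base and differ by a cassette exon in the coding sequence. Rfx2-201, which includes it and has 717 codons, was at an FPKM of 121 in *Tdrd6*+/- and 129 in *Tdrd6*-/-. Rfx2-202, which skips it and has 692 codons, was at 59.2 and 57.5. The longer form took 67.2% of the sum in *Tdrd6*+/- and 69.1% in *Tdrd6*-/-. Relative to transcripts of like total length the log2 ratio of Rfx2-201 turned from 0.09 to -0.07. *Rfx3* (chr19:27842629-28085630, minus strand) had 2 of 10 annotated transcripts listed, which encode the same 749 codons behind different 5' UTRs. Rfx3-004 was at 5.52 and 4.95 and Rfx3-001 at 2.14 and 3.79, apart and higher at 1.77-fold. The 2 forms thus lay on opposite sides of no difference, and their sum was 7.65 and 8.74. Rfx3-001 is a low transcript, and 15.3% of all transcripts with an FPKM of 1 to under 5 were apart and higher. With a pseudocount of 1 its log2 ratio of 0.83 became 0.61, just over the fold. All of Rfx3-001 and 97.2% of Rfx3-004 is shared with other *Rfx3* isoforms at the read length.

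X-box elements hold the letters GTTGCC, which was searched on both strands from 250 bases before to 50 bases after each annotated start. It occurred in 13.8% of all 17987 such windows in the tables. Among the 21 windows of the 10 genes it occurred in 3, all of *Rfx2* and *Rfx3*, which is near the share of all windows. The *Rfx3* windows overlap and hold the same match. The *Rfx2* and *Rfx3* matches are shown because they lie at the genes of the factors that bind such sites, and that of *Dync2li1* as an example from a ciliary gene, chosen after its match was seen. The letters searched are in capitals. All are from mm9, *Rfx2* and *Rfx3* on the minus strand and *Dync2li1*, a gene of the ciliary transport motor, on the plus strand.
Rfx2, chr17:56970530-56970559: agcttggtaaccGTTGCCgggcgcaacgcc
Rfx3, chr19:28085608-28085637: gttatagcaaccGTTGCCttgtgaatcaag
Dync2li1, chr17:85025781-85025810: ggccgtgacgtcGTTGCCatggcaaccgag
The *Rfx2* match begins 116 bases before its start, and that of *Rfx3* 90 bases before the start of Rfx3-004 and 5 bases after that of Rfx3-001. In *Dync2li1* another match, on the other strand, follows closely. Among 16 ciliary genes with a window, 9 held a match (56.2%). A match is a description of the letters and not evidence of binding.

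The 7 other RFX family genes that passed the filter included none apart in either direction, with a median log2 ratio of 0.06. *Rfx8* was the most abundant at an FPKM of 99.9 in *Tdrd6*+/- and 92.3 in *Tdrd6*-/-, followed by *Rfx1* at 20.3 and 21.1. Of 16 ciliary genes of the kind RFX factors control, 1 was apart and higher and none lower, with a median of 0.24. It was *Ift80*, an intraflagellar transport subunit, at 5.37 and 9.08. *Spag6*, a protein of the sperm axoneme, was at 185 and 215, *Ift172* at 55.1 and 71.6, and *Dync2li1* at 46.4 and 50.1. *Foxj1* (82.8 and 78.5) and *Bbs5* (21.0 and 18.9) went the other way. Relative to transcripts of like total length, the log2 ratio of *Ift80* went from 0.76 to 0.56 and that of *Ift172* from 0.38 to 0.04. *Spag6* went from 0.22 to 0.19 and *Dync2li1* from 0.11 to 0.31.

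*Sox5* (chr6:143781355-144158078, minus strand) and *Sox30* (chr11:45793812-45831496, plus strand) had 1 listed transcript each. Sox5-201, of 714 codons and 1 of 14 annotated, was at an FPKM of 34.5 in *Tdrd6*+/- and 30.1 in *Tdrd6*-/-, 1.15-fold lower. Spermatids are known for a short SOX5 protein, and because all of Sox5-201 is shared with other annotated *Sox5* transcripts at the read length, the value of this long form depends on how Cuffdiff assigned those reads. Sox30-001, the only annotated form, of 782 codons, was at 29.96 and 29.2. It shares no 75-base stretch with another protein-coding transcript, and its genotypes differed by 1.03-fold. Of 17 other Sox family genes 4 passed the filter and none was apart. The highest was *Sox6*, a relative of *Sox5*, at 17.8 and 19.0, while *Sox9*, a Sertoli cell factor, had no row.

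*Brdt* (chr5:107760178-107816077, plus strand) had 2 of 4 annotated transcripts listed, from the opposite ends of the 3' UTR classes. Brdt-003, a short form of 326 codons in the short table, was at an FPKM of 140 in *Tdrd6*+/- and 144 in *Tdrd6*-/-, 1.02-fold higher. Brdt-001, the full-length form of 956 codons with a 3' UTR of 1532 nt in the long table, was at 8.23 and 13.8, apart and higher at 1.67-fold. Of transcripts with an FPKM of 5 to under 20, 8.61% were apart and higher, and 96.1% had a lower log2 ratio than Brdt-001. Relative to transcripts of the same 3' UTR table or of like total length its log2 ratio of 0.74 became 0.53 and 0.49, and it was no longer apart. The full-length share was 5.55% of the listed sum in *Tdrd6*+/- and 8.74% in *Tdrd6*-/-. The 2 forms share most of Brdt-003 (79.5% of its 75-base stretches), while 26.1% of the stretches of Brdt-001 occur in another *Brdt* transcript. The median log2 ratio was 0.21 over all long 3' UTR transcripts, 0.03 over the medium and -0.15 over the short ones, and the part of this trend in the contrast within *Brdt* was not tested. *Brd2* and *Brd3*, broadly expressed relatives of *Brdt*, were not apart, at 116 and 134 and at 6.62 and 9.48.

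*Papolb* (chr5:143001792-143006030, minus strand) is a gene of 1 exon that encodes the testis poly(A) polymerase, with 642 codons and a 3' UTR of 2120 nt. Papolb-001 was at an FPKM of 149 in *Tdrd6*+/- and 170 in *Tdrd6*-/-, 1.14-fold higher and not apart. On the log2 scale this 0.19 turned to -0.02 relative to transcripts of the same 3' UTR table and also to those of like total length. The gene lies within *Radil* on the same strand, so reads of unspliced *Radil* could be counted for it, but it shares no 75-base stretch with another protein-coding transcript. Among 10 other poly(A) polymerases and poly(A)-binding proteins that passed, *Papola*, the general nuclear polymerase, was apart and higher at 8.91 and 13.5, 1.52-fold, and none was lower, with a median of 0.22. The poly(A)-binding proteins were abundant, with *Pabpc2*, a testis form, at 314 and 380 and *Pabpc1* at 313 and 444.

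The abundant members were also placed among other transcripts of their level. Among the 1187 transcripts with an FPKM of 100 or more the median log2 ratio was -0.30, 13.4% were apart and lower and 0.337% apart and higher. Brdt-003 (0.03), Tbpl1-002 (0.07), Rfx2-201 (0.09) and Papolb-001 (0.19) lay above 87.9%, 89.6%, 90.4% and 94.6% of the transcripts in this range. Crem-022 (-0.56) lay above 14.8% of them. These places are a description of the pooled values, and the comparison by level was chosen after seeing the data. They do not take transcript length into account. Relative to transcripts of like total length, Brdt-003 stood at 0.14, Tbpl1-002 at 0.27, Rfx2-201 at -0.07, Papolb-001 at -0.02 and Crem-022 at -0.19.

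**Figure D3:**
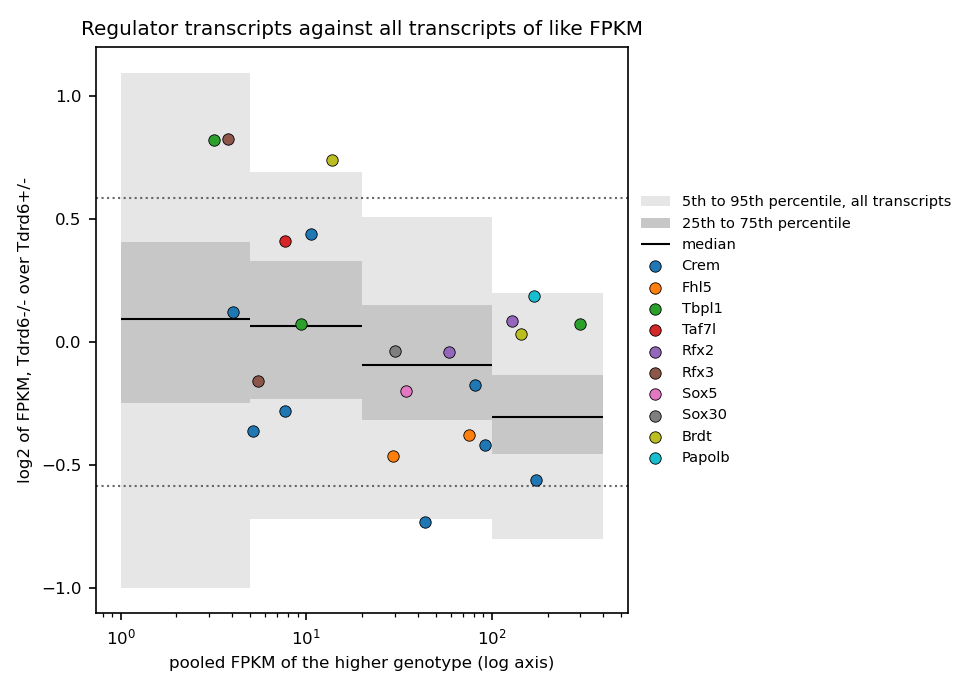
Each point is 1 of the 23 transcripts that passed the filter, coloured by gene, with the pooled FPKM of the higher genotype on the x axis (log axis) and the log2 ratio of *Tdrd6*-/- over *Tdrd6*+/- on the y axis. Grey bands give the percentiles named in the key for all transcripts within 4 FPKM ranges, black lines their medians and dotted lines a ratio of 1.5-fold. In the highest range, where the median is -0.30, 4 points of *Tbpl1*, *Rfx2*, *Brdt* and *Papolb* lie above 0 and 1 of *Crem* below.

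Of 20 genes for CRE-binding factors and their co-factors 15 passed, none was apart and higher and 1 was apart and lower, with a median log2 ratio of -0.03. It was *Creb3l4*, a CREB-type factor with a testis form, at an FPKM of 321 in *Tdrd6*+/- and 211 in *Tdrd6*-/-, 1.52-fold lower. *Fhl4*, a testis LIM protein related to *Fhl5*, was the most abundant at 799 and 900. *Kif17*, a kinesin that moves FHL5 out of the nucleus, was at 46.0 and 38.7, and *Creb1* at 2.50 and 2.46.

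The protamine and transition protein genes had the widest differences among genes known as CREM targets. Of 12 such genes 5 were apart and lower in *Tdrd6*-/- (41.7%, against 8.05% of all genes), none was higher, and the median log2 ratio was -0.56. Among all transcripts with an FPKM of 100 or more, 13.4% were apart and lower. *Prm1*, a protamine that packs sperm DNA, was at an FPKM of 5521 in *Tdrd6*+/- and 1162 in *Tdrd6*-/-, 4.75-fold lower. *Tnp2* and *Tnp1*, the transition proteins that precede the protamines, were 4.05-fold and 3.51-fold lower, and *Prm2* was 3.63-fold lower. *Odf1*, of the sperm tail, was 1.83-fold lower. These 5 are also among the late spermatid markers, as are 7 of the 12 targets in all. Of the 5 other targets, *Ace*, *Camk4*, *Gapdhs*, *Ldhc* and *Tcp11*, none was apart, and their median was -0.34. All but *Camk4* reached an FPKM of 100, and the median over all transcripts at that level was -0.30, near theirs. *Crem* itself, as the sum of its listed transcripts, was 1.34-fold lower. That sum counts the short forms from internal starts (43.7% of it in *Tdrd6*+/-) together with the others. The part of *Crem* in the lower values of these genes was not tested.

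**Figure D4:**
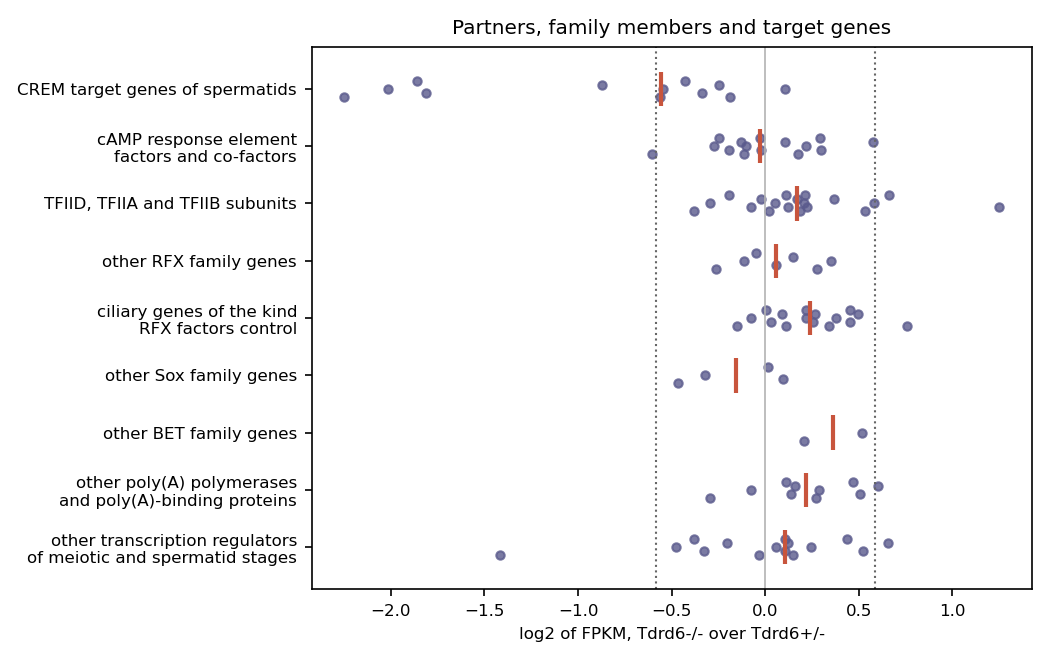
Points are genes of 9 lists related to the 10 regulators, each with its most abundant transcript, placed by the log2 ratio of pooled FPKM (x axis), with red bars for list medians and dotted lines at 1.5-fold. CREM target genes reach furthest to the left (median -0.56), and the ciliary genes have a median of 0.24.

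The palindromic CRE, TGACGTCA, was present on either strand in 3.1% of all windows, and in windows of 2 starts of the 10 genes, both of them internal *Crem* starts. From the start at 3281767, used by Crem-022 and Crem-025, a match began 59 bases upstream, and from that at 3281076, used by Crem-031, matches began 97 and 30 bases upstream. None of the 12 CREM target genes held the palindrome in its window and 2 held its first letters TGACG (16.7%, against 30.3% of all windows), which says only that these letters are not in the windows of the others. The letters TGACG are contained in the palindrome, so the searches overlap. The core of Sox sites, AACAAT, was in 7.02% of all windows. Of the 21 windows of the 10 genes it was in 4, those of *Fhl5* and of the 5'-most *Crem* starts. These *Crem* windows overlap and hold the same match, and the other *Crem* starts had none. TATAAA was in 7.79% of all windows and in that of *Taf7l*. The *Fhl5* match is shown because *Fhl5* is the coactivator whose both transcripts use that start, with the core in capitals on the minus strand of mm9.
Fhl5, chr4:25170026-25170055: ggctcatgacatAACAATcggtgtcagcac
It begins 20 bases before the start.

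Of 15 other regulators of meiotic and spermatid stages that passed, 1 was apart and higher (6.67%) and 1 lower (6.67%), with a median of 0.11. *Zfy2*, a Y-linked zinc finger gene of spermatids, was at an FPKM of 1.17 in *Tdrd6*+/- and 1.84 in *Tdrd6*-/-. *Sohlh1*, a factor of spermatogonia, was at 1.40 and 0.522.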

How the data were processed

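Per the labels, mRNA was selected by poly-dT, whereas the methods of the study describe depletion of ribosomal RNA, and libraries were stranded and read as single ends. Per the submitters' processing notes, reads were aligned to mm9 with TopHat2 2.0.9 and Bowtie2 2.10, and transcripts were measured with Cufflinks 2.1.1 and Cuffdiff. The methods name an Ensembl annotation. Values are FPKM, as deposited by the authors, 1 per transcript and genotype with the 4 libraries of a genotype pooled. The tables also hold the authors' own comparison (log2 fold change, test statistic, p- and q-value), which was not used. How the libraries were scaled to each other, and whether strand was used in counting, is not given in the sources used here. Reads behind an FPKM are unknown, so no interval could be given.

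Python 3.11.15 with pandas 2.3.3 and numpy 2.4.6 was used for all values, and matplotlib 3.10.9 for the plots. Ratios are *Tdrd6*-/- over *Tdrd6*+/- without a pseudocount. In all, 43 transcripts at 0 in a genotype have no ratio. Transcripts were counted where the values lay 1.5-fold apart and the higher was at least 1, and the ratio and count steps were tested on simulated data. Coordinates, lengths and sequences were looked up by Ensembl identifier in GENCODE M1 on NCBIM37, which matched 18894 of 19077 transcripts. Every member transcript was named, and from each list up to 4 genes furthest past the fold in each direction and, for partners and relatives, the most abundant. *Odf1*, *Ace*, *Camk4*, *Gapdhs*, *Ldhc*, *Tcp11*, *Rfx1*, *Tbp*, *Creb1*, *Kif17*, *Ift172*, *Spag6*, *Dync2li1*, *Foxj1* and *Bbs5* are named in addition, after their values were seen. Members and lists were chosen with earlier results of these data known. Alternatives were other folds, filters, pseudocounts, centrings and 1 value per gene.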

Additional observations from a re-analysis of the deposited data

How the results depend on the processing

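The counts of members apart (3 higher, 1 lower) depended on the fold and the unit. At 2-fold they were 0 and 0, at a ratio of 5 to 4 they were 5 and 6, and with 1 transcript per gene or gene sums 0 and 0. With an FPKM of at least 5, 1 was higher. Centred on transcripts of the same 3' UTR table or of like total length, none was lower (0), as Crem-021 then stood at -0.58 and -0.46. Brdt-001 then stood at 0.53 and 0.49, and Crem-025 at 0.71 with centring on length. With a pseudocount of 1, Tbpl1-201 stood at 0.58, under the fold. No transcript that was apart changed direction, but others near 0 did. Centring on the same 3' UTR table turned Tbpl1-001 (0.08 to -0.13) and Papolb-001 (0.19 to -0.02). Centring on like total length turned Crem-032 (-0.18 to 0.13), Crem-031 (-0.11 to 0.16), Rfx2-201 (0.09 to -0.07) and Papolb-001 (to -0.02). Centring on like FPKM turned Sox30-001 (-0.04 to 0.06) and Rfx2-202 (-0.04 to 0.05). The median of the members ran from -0.0990 to 0.0625, positive with gene sums and with centring on transcripts of like FPKM (0.0297), a setting chosen after seeing the data.

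With every listed transcript counted, CRE factors had 1 higher and 3 lower of 28 that passed, and general factor subunits 5 and 1 of 35. Other RFX genes had 1 higher of 11, ciliary genes 2 higher of 22 and poly(A) genes 4 higher of 19. Other regulators had 3 higher and 2 lower of 21, and CREM targets 7 lower of 17. Among all 15585 transcripts that passed, 9.7% were apart and higher and 9.99% apart and lower.

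No paired analysis was possible because each genotype has 1 pooled value, and no replicate was left out, as single replicates have no value here. The division of reads among isoforms of a gene limits each transcript value.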
